A study of Mus musculus with 8 samples.

Results

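The G1 cyclins, their cyclin-dependent kinases (CDKs) and the phosphatase that activates these kinases were followed by RNA sequencing in 2 transformed peritoneal mast cell lines and in primary wild-type peritoneal mast cells (primary WT PMCs). The set was chosen by name and held 10 genes of the 55359 in the gene table. These were the D-type cyclins Ccnd1, Ccnd2 and Ccnd3, the E-type cyclins Ccne1 and Ccne2, cyclin A2 (Ccna2), the kinases Cdk2, Cdk4 and Cdk6, and Cdc25a. All 10 were among the 14525 genes with enough counts to be tested. PMC-303 and PMC-306 are lines that arose spontaneously in ageing cultures of such cells, and each was sequenced as 1 culture. The 6 primary cultures came from 3 female and 3 male mice. All cells came from wild-type mice of mixed C57BL/6x129/Sv strain and were left untreated, and the labels give no sex for the lines. The study describes the karyotype of PMC-306 as male. For PMC-306 the study reports a heterozygous chromosomal deletion over the Cdkn2a locus. In part of the cells it also reports a translocation between the Y chromosome and chromosome 17, where Ccnd3 lies. For PMC-303 it reports an extra chromosome copy in part of the cells. According to the methods of the study, both lines were grown with IL-3 and with less serum and less stem cell factor than the primary cultures, which had been isolated freshly. Transformation, chromosomal changes, time in culture and medium therefore differ between the same cultures and cannot be told apart.

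D-type cyclins are made in response to growth factors, bind CDK4 and CDK6 and start the phosphorylation of the retinoblastoma protein, which holds back the E2F transcription factors. Once E2F is released, cyclin E and then cyclin A are made, and with CDK2 they carry the cell into and through S phase. CDC25A removes inhibitory phosphates from CDK2, and inhibitors of the INK4 and CIP/KIP families act on these kinases. In mast cells, stem cell factor acting on its receptor KIT and IL-3 are the main growth signals upstream of these cyclins.

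Both lines lay below all 6 primary cultures in the RNA of the 3 D-type cyclins and of Cdk6, and above all 6 in the RNA of both E-type cyclins, cyclin A2, Cdk2, Cdk4 and Cdc25a. With limma on log2(CPM + 0.1), where CPM are counts scaled to library sizes by the trimmed mean of M values (TMM), 6 of 10 genes were higher in the lines and 4 were lower at a Benjamini-Hochberg adjusted p under 0.05. Of all genes tested, 18.3% were higher and 15.5% lower. Both lines lay above the whole primary range for 22.9% of all genes and below it for 20.1%. The median log2 difference of the 10 genes was 0.93, against -0.01 over all genes. The 2 lines served as replicates of each other in this test, so that its error is the spread between 2 separate lines and among 6 primary cultures.

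**Figure D1:**
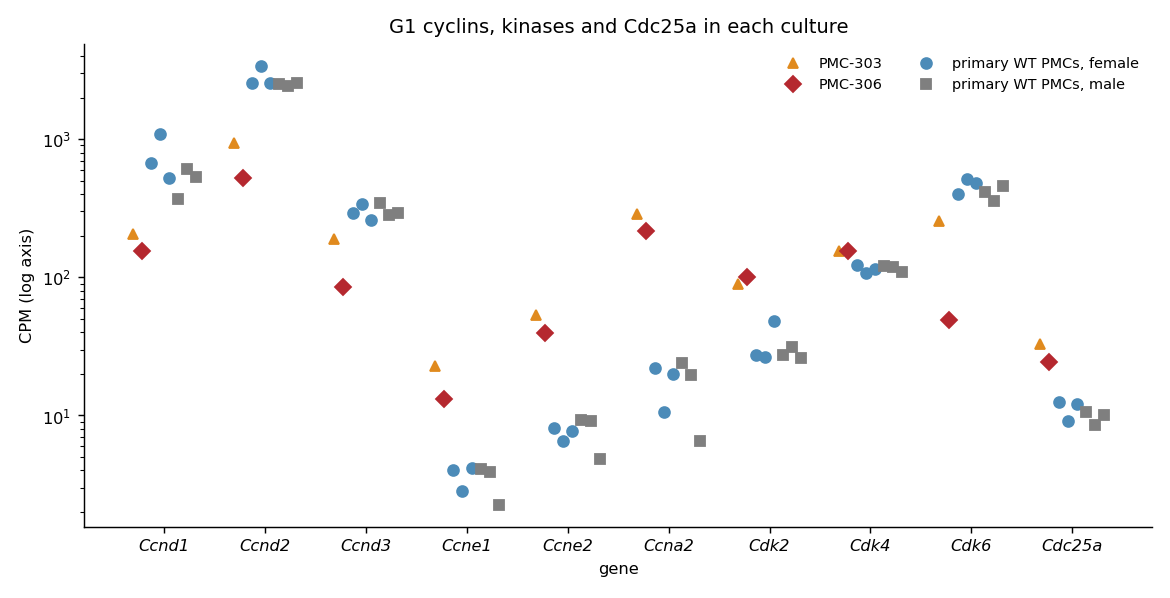
CPM of each of the 10 genes (x axis) on a log axis in every culture, with PMC-303 as triangles, PMC-306 as diamonds, female primary cultures as circles and male ones as squares. For the D-type cyclins and Cdk6 both lines lie under every primary culture, and for the other 6 genes above every one.

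The libraries held between 15918758 and 24180226 estimated counts, and 3 counts, the limit that a count of 0 allows, are 0.124 to 0.187 CPM, counting error only. Of 9 mast cell markers all were detected, among them the protease Cpa3, and their summed level was 43294 CPM in PMC-303, 40054 in PMC-306 and 46582 to 73195 in primary cultures. 3 of these markers were lower in the lines (Kit, the IgE receptor chain Fcer1a and Il1rl1) and 0 were higher. Of all genes, 15.5% were lower and 18.3% higher. The call of Il1rl1 was lost with TPM (adjusted p = 0.0866) and against female (0.0955) or male cultures (0.0694) alone. That of Fcer1a was lost against female cultures alone (0.0565). The log2 difference of Il1rl1 was -0.71 without PMC-303 and -0.67 without PMC-306. The 7 macrophage markers summed to 7.16 CPM in PMC-303 and 441 in PMC-306, of which Adgre1 alone gave 426, and to between 7.22 and 68.7 CPM in primary cultures. C1qb was at 0 in every library and C1qa at 0 in both lines. The lists for B cells, T cells, neutrophils, eosinophils and fibroblasts or mesothelium summed to at most 3.47 CPM in any library. The proliferation marker Mki67 stood at 1015 CPM in PMC-303 and 835 in PMC-306, against 28.6 to 106 CPM in the primary cultures. RNA was measured in whole cultures, so that a larger share of cells in cycle and more RNA per cycling cell cannot be told apart from these values. By flow cytometry the study reports a larger share of MKI67-positive cells in PMC-306 than in primary WT PMCs. How much of the RNA differences goes with that share was not tested.

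Ccnd2 was the most abundant of the cyclins per length in primary WT PMCs (445 ± 75.3 TPM, SD, n = 6) and fell in both lines. The gene lies on chr6:127102125-127129156 (GRCm39, minus strand). It had 940.4 CPM in PMC-303 and 528 in PMC-306, while the primary cultures ranged from 2437 to 3387 CPM with a median of 2553. Its log2 difference was -1.91 ± 0.22 (SE; limma adjusted p = 0.000378). PMC-306 thus held 19.8% and PMC-303 35.2% of the primary mean of 2669 ± 355 CPM (SD, n = 6). Without PMC-303 the difference was -2.33 and without PMC-306 it was -1.50.

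Ccnd1, the D-type cyclin best known for its response to mitogens (chr7:144483668-144493662, minus strand), was also the most variable of the 3 among primary cultures. PMC-303 had 205 CPM and PMC-306 had 156 CPM, and the primary cultures had 370.5 CPM at the lowest, 570.1 at the median and 1096 at the highest. The coefficient of variation among primary cultures was 39.1%, against 13.3% for Ccnd2 and 11.2% for Ccnd3. Even so, the lowest primary culture exceeded PMC-303 by 1.81-fold, and the log2 difference was -1.74 ± 0.34 (SE; limma adjusted p = 0.00505).

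Ccnd3 (chr17:47815767-47910624, plus strand), a D-type cyclin prominent in blood cells, separated the lines from each other. It stood at 189 CPM in PMC-303 but at 85.2 CPM in PMC-306, which is 2.22-fold less. In primary cultures it ranged from 261 to 347 CPM with a median of 292. PMC-306 therefore lay far under the primary range and PMC-303 a little under it, and together they gave a log2 difference of -1.24 ± 0.25 (SE; limma adjusted p = 0.0064). The difference was -1.82 without PMC-303 and -0.67 without PMC-306, and it lost its call against the female cultures alone (adjusted p = 0.0728) and against the male cultures alone (0.054).

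**Figure D2:**
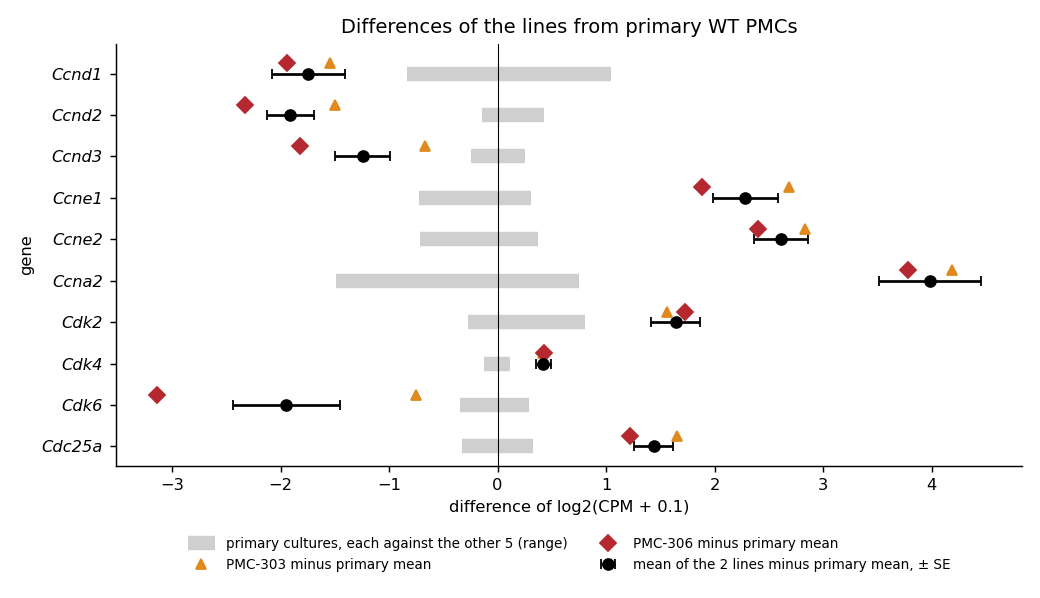
Differences of log2(CPM + 0.1) from the primary mean for each gene, with the mean of both lines and its SE in black, each line by its own symbol and, as grey bars, the range of each primary culture against the other 5. Cdk6 shows the widest gap between the lines, -0.75 in PMC-303 and -3.14 in PMC-306, and both lines fall outside the grey bar for every gene.

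Levels of different genes can be compared only per transcript length, for which the deposited TPM, which are scaled for length and library size, were used. The 3 D-type cyclins summed to 345 TPM in PMC-303 and 203 TPM in PMC-306, and to between 603 and 1093 TPM in primary cultures. Male culture 3 gave the lowest primary sum. Its Ccnd2 had the lowest primary TPM (349) but 2552 CPM, near the primary median of 2553 CPM. The groups thus lay apart in the sum, and less so in the mix. Ccnd2 held 49.5% of D-type TPM in PMC-303 and 51% in PMC-306, and between 53% and 59.1% in primary cultures, so that the groups did not overlap in deposited TPM. With CPM divided by the longest transcript, the lines no longer both stood apart from every primary culture (two-sided exact permutation p = 0.143).

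The share of Ccnd1 lay at 18.5% and 24.3% in PMC-303 and PMC-306, within the primary range of 14.7% to 29.2%. Ccnd3 made up 32% and 24.7% of D-type TPM in the same order, and 17.8% to 26.8% in primary cultures, so that PMC-303 lay above the primary range and PMC-306 inside it. The shares of the 3 cyclins differed by -0.99, -6.15 and 7.14 percentage points between the means of the lines and of the primary cultures. None passed a two-sided exact permutation test over the libraries (p = 0.786, 0.0714 and 0.143, and 0.786, 0.214 and 0.214 after adjustment over the 3 shares). The smallest p that 2 against 6 libraries allow is 0.0714. The small difference for Ccnd1 changed sign under other settings.

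The cyclins of late G1 and S phase moved the opposite way, and Ccna2 had the largest difference of all 10 genes. Cyclin A2, which binds CDK2 in S phase and CDK1 later (chr3:36619014-36626299, minus strand), stood at 286 CPM in PMC-303 and at 216 in PMC-306. Primary cultures had 6.56 CPM at the lowest, 19.8 at the median and 24.1 at the highest. Even the lower line exceeded the highest primary culture 8.95-fold, and the log2 difference was 3.98 ± 0.47 (SE; limma adjusted p = 0.000478). The primary cultures themselves spread over 3.68-fold, from male culture 3 to male culture 1.

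Ccne2, which drives entry into S phase with CDK2 (chr4:11190303-11204947, plus strand), had 53.7 CPM in PMC-303 and 39.5 in PMC-306. Its primary values lay between 4.88 and 9.25 CPM with a median of 7.92. PMC-303 held 7.06 and PMC-306 held 5.2 times the primary mean, and the log2 difference was 2.62 ± 0.25 (SE; limma adjusted p = 0.000183).

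Ccne1, the paralog with the same partner kinase (chr7:37797404-37808264, minus strand), was the least abundant gene of the set per length in primary cultures (2.09 ± 0.633 TPM, SD, n = 6). PMC-303 had 22.8 CPM from 555 counts and PMC-306 had 13.1 CPM from 266 counts, while the primary cultures had 2.26 to 4.17 CPM, with a median of 3.98, from 43 to 88 counts. The 2 lines again lay apart from every primary culture, with a log2 difference of 2.28 ± 0.30 (SE; limma adjusted p = 0.000768). Per length, Ccne1 stood below Ccne2 in every culture. The ratio of their TPM was 0.487 in PMC-303, 0.439 in PMC-306 and 0.465 to 0.877 in primary cultures, so that the ratio overlapped between groups although both genes rose.

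Set against each other, the 2 classes of cyclin changed the make-up of cyclin RNA. The E- and A-type cyclins together summed to 158 TPM in PMC-303 and 123 TPM in PMC-306, against 5.24 to 15.9 TPM in primary cultures. They made up 31.4% and 37.7% of the TPM of the 6 cyclins in PMC-303 and PMC-306 and between 0.757% and 2.07% in primary cultures. D-type RNA exceeded E- and A-type RNA 2.18-fold in PMC-303 and 1.65-fold in PMC-306, whereas in primary cultures the excess ranged from 47.3-fold to 131-fold. D-type cyclins thus remained the larger class in every culture.

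**Figure D3:**
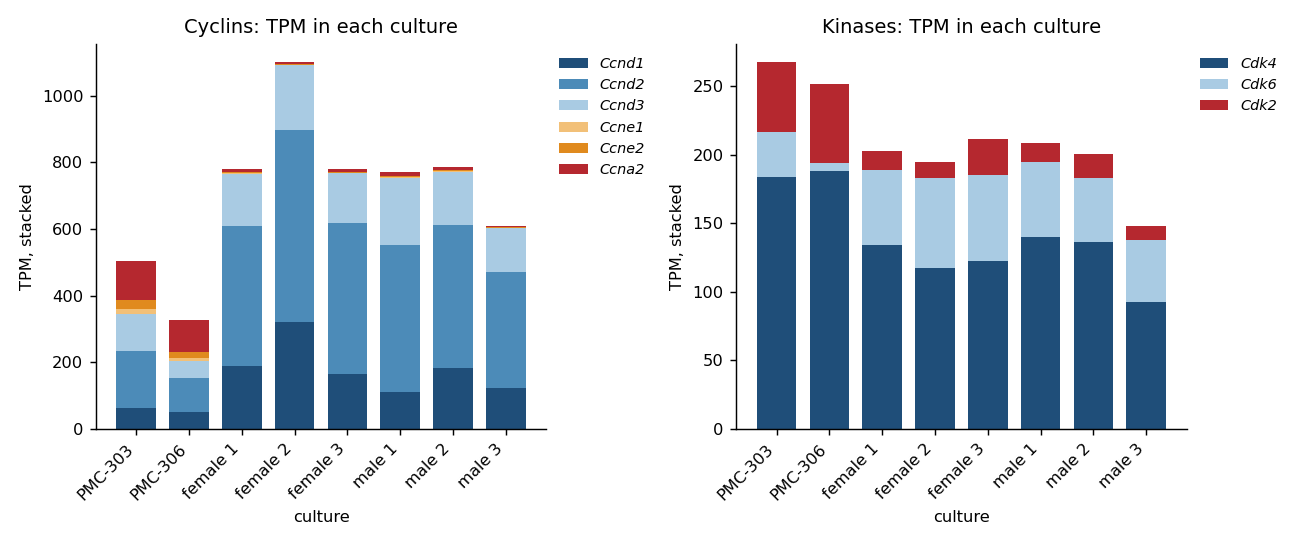
Stacked TPM of the 6 cyclins (left) and of the 3 kinases (right) in every culture, with bars starting at 0. The D-type cyclins shrink from at least 603 TPM in primary cultures to 345 and 203 TPM in the lines while the E- and A-type cyclins become visible, and Cdk6 falls to 6.03 TPM in PMC-306.

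Of the kinases, Cdk4 was the steadiest gene of the set. Cdk4, the partner of D-type cyclins found in most tissues (chr10:126895180-126903789, plus strand), had 155 CPM in each line. Primary cultures ranged only from 107 to 124 CPM with a median of 117, a coefficient of variation of 5.61%. The difference was small, 1.34-fold of the primary mean in both lines, yet larger than the spread among cultures (log2 difference 0.42 ± 0.07 SE; limma adjusted p = 0.00285). Library totals without TMM gave 0.53 and deposited TPM gave 0.60, with medians over all genes of 0.10 and 0.13, and the gene kept its call under both.

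Cdk6, the second partner of D-type cyclins and the one most used by blood cells (chr5:3391485-3581008, plus strand), differed more between the lines than any other gene of the set. PMC-303 had 257 CPM and PMC-306 had 49 CPM, a ratio of 5.25. The primary cultures had 354 CPM at the lowest, 435 at the median and 511 at the highest. PMC-306 thus held 11.2% and PMC-303 59% of the primary mean. The log2 difference of -1.95 carried the largest SE of the set (0.49; limma adjusted p = 0.0161). Without PMC-303 it was -3.14 and without PMC-306 it was -0.75. Against female or male cultures alone the call was lost (adjusted p = 0.101 and 0.115).

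While Cdk4 rose and Cdk6 fell, the sum of both overlapped between the groups. Cdk4 and Cdk6 together had 216 TPM in PMC-303 and 194 TPM in PMC-306, the latter within the primary range of 138 to 195 TPM. Male culture 3 set the low end, although its CPM of Cdk4 (109) and Cdk6 (457) lay inside the range of the other primary cultures. The balance between them shifted. In gene-level TPM, Cdk4 exceeded Cdk6 by 1.81- to 2.93-fold in primary cultures, by 5.66-fold in PMC-303 and by 31.2-fold in PMC-306. In primary cultures coding transcripts held 28.4% to 37.9% of Cdk4 TPM but 93.7% to 96.2% of Cdk6 TPM. The order of both genes in the coding RNA of primary cultures was therefore not settled by this balance. In the lines, the coding transcript Cdk4-205 alone had an estimated 44 TPM in PMC-303 and 40 TPM in PMC-306. All Cdk6 RNA together had 32.5 TPM in PMC-303 and 6.03 TPM in PMC-306.

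Cdk2, the partner of cyclins E and A (chr10:128533796-128540963, minus strand), had more RNA in PMC-306 than in PMC-303, by 1.12-fold. It had 89.9 CPM in PMC-303 and 101 in PMC-306, and in primary cultures from 26 to 48.6 CPM with a median of 27.4. Only female culture 3 exceeded 31.5 CPM among the primary cultures, and it still lay 1.85-fold under the lower line. The log2 difference was 1.64 ± 0.23 (SE; limma adjusted p = 0.000949). Of the TPM of the 3 kinases, Cdk2 held 19% in PMC-303, 22.7% in PMC-306 and 6.2% to 12.5% in primary cultures, and Cdk6 held 12.2%, 2.4% and 23.2% to 33.4%. Coding transcripts held 58.1% of Cdk2 TPM in PMC-303, 59.6% in PMC-306 and 53.4% to 76.3% in primary cultures. The shares of the kinases therefore mix coding and other RNA.

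Cdc25a, the phosphatase that activates CDK2 complexes (chr9:109704583-109723540, plus strand), rose with the cyclins of late G1. It had 32.8 CPM in PMC-303, 24.4 CPM in PMC-306 and 8.58 to 12.5 CPM, with a median of 10.3, in primary cultures. The log2 difference was 1.44 ± 0.18 (SE; limma adjusted p = 0.000616). In CPM, PMC-303 held more RNA than PMC-306 of 8 of the 10 genes by 1.31-fold or more, rising and falling genes alike, the exceptions being Cdk2 and Cdk4. In TPM the ratio for Ccna2 was 1.21. The share of all genes higher in PMC-303 was not determined, so that this count cannot be read as a trait of the set.

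Promoter stretches are shown for the 3 genes of the set in which E2F words or repeated E-boxes were found. RefSeq promoters on GRCm38.p6, which reach from 250 bases before to 50 after the start of the gene, were available for 6 of the 10 genes, and Ccnd1, Ccnd2, Ccne2 and Ccna2 had none. The E2F words TTTCCCGC, TTTCGCGC, TTTGCCGC and TTTGGCGC were searched on both strands and stand in capitals for Cdc25a and Cdk2. For Cdk4 the capitals mark the E-box CACGTG, which reads the same on both strands and is bound by MYC and related factors.
Cdc25a, chr9:109875429-109875534, plus strand: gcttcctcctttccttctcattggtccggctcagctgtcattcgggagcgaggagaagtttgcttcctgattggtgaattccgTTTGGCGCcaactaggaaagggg
Cdk2, chr10:128705097-128705216, minus strand: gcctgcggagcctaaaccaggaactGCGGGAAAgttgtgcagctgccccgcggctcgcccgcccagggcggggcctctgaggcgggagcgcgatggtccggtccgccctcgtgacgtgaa
Cdk4, chr10:127063350-127063503, plus strand: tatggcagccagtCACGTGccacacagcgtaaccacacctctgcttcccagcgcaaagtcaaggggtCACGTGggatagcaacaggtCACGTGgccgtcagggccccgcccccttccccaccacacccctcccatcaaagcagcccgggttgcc
Each stretch is written 5′ to 3′ on the strand of its gene. The E2F word begins 67 bases before the start of Cdc25a and, on the opposite strand, 140 bases before that of Cdk2. An E2F word was found in 2.26% of 32851 promoters of the same length, and among the 6 genes with a promoter in Cdc25a and Cdk2 only. Cdk4 held the E-box 4 times within its 300 bases, at 172, 118 and 98 bases before the start and once more beyond the printed stretch, against at least 1 E-box in 7.15% and 4 or more in 0.0244% of promoters. Cdk6 held 1 E-box, and Ccne1 and Ccnd3 held neither motif. These are matches of letters in a window and were not tested for binding.

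The transcript that carried each gene was the same in lines and primary cultures for most of the set. Transcripts were matched to GENCODE M39 names by their stable identifiers. A single coding transcript held most of the TPM of Ccnd1 (Ccnd1-201, 94.6% to 97.2% in primary cultures, 95.7% in PMC-303 and 97% in PMC-306). Ccnd2-201 held 94.3% to 96.3% in primary cultures and 94.5% in PMC-303 but 88.6% in PMC-306, and Ccnd3-205 held 91.4% to 97.1%, 93.5% and 84.7% in the same order.

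Cdk6 was carried by Cdk6-202, with 65.1 ± 3.39% of its TPM in primary cultures (SD, n = 6), 71.6% in PMC-303 and 78% in PMC-306. A second coding transcript, Cdk6-201, held 12.1% to 18.7% in primary cultures and 11.7% in PMC-303 and was estimated at 0 counts in PMC-306. Such an estimate divides reads among transcripts, so that the limit of 3 counts does not apply to it. Cdk4 was spread over 9 transcripts, of which the 4 coding ones held 39.8% of TPM in PMC-303, 35.9% in PMC-306 and 28.4% to 37.9% in primary cultures. The rest lay on transcripts annotated as retained introns or as targets of nonsense-mediated decay, so that gene-level TPM of Cdk4 is not all coding RNA. Estimates of transcripts that share exons are less certain than those of the gene.

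Among the primary cultures no gene of the set passed the test for a difference by sex. In limma on 3 female against 3 male cultures, 6 of 13693 genes passed an adjusted p of 0.05, which is 0.0438%, and 0 of the 10 genes of the set did, each with an adjusted p of 1.0. At an unadjusted p under 0.05 none of the 10 passed either, since the lowest was 0.106 for Ccnd1 (log2 difference female minus male 0.56 ± 0.30 SE). With 3 cultures a sex, this does not show that the levels were alike.

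The 6 primary cultures nevertheless differed from each other in the cyclins of S phase. Male culture 3 had the lowest Ccne1, Ccne2, Ccna2 and Cdk2 of the primary cultures, and it also had the lowest Mki67 (28.6 CPM). Female culture 2 came next to it in Mki67 (42.7 CPM) and in Ccna2 (10.5 CPM), while the other 4 cultures had 86.6 to 106 CPM of Mki67 and 19.7 to 24.1 CPM of Ccna2. Ccnd1, Ccnd2 and Cdk6 were highest in female culture 2. The same 2 cultures had the highest summed macrophage markers, 68.7 CPM in female culture 2 and 33.1 CPM in male culture 3, against 7.22 to 23.4 CPM in the others. The part of these differences in the result was not tested. Without both cultures 9 of the 10 genes kept their call, Cdk6 being the exception (adjusted p = 0.0548, with a log2 difference of -1.87 against -1.95 with all cultures), and Ccna2 had a log2 difference of 3.53.

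**Figure D4:**
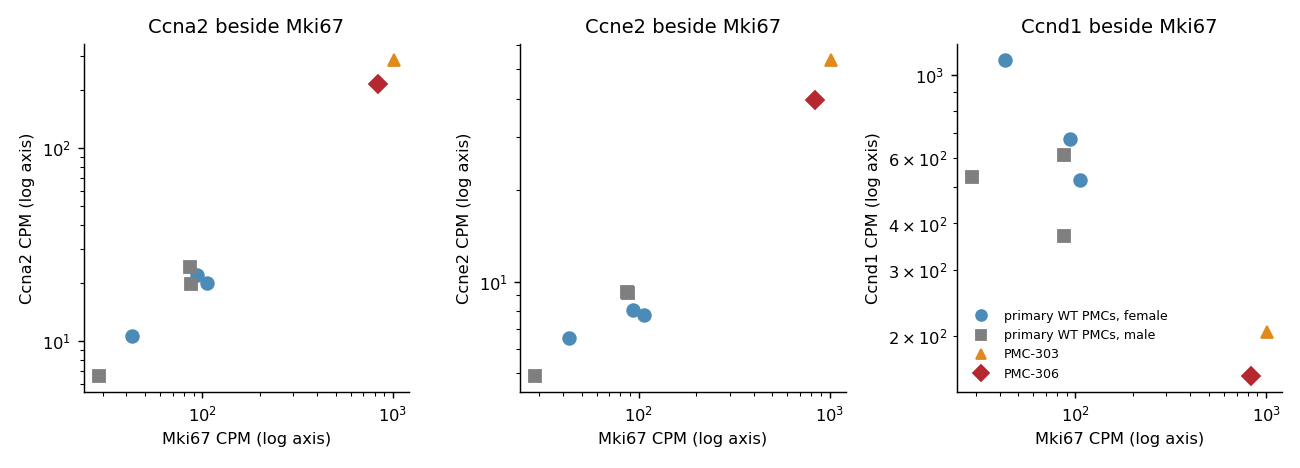
CPM of Ccna2, Ccne2 and Ccnd1 (y axes) beside CPM of Mki67 (x axes), all log axes, 1 point a culture. Male culture 3 and female culture 2 have the lowest Mki67 (28.6 and 42.7 CPM) and the lowest Ccna2 of the primary cultures, and the lines lie far to the right, high in Ccna2 and Ccne2 and low in Ccnd1.

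The genes whose values over the 8 libraries ran most like those of the set were sought for the most abundant member of each role, among the 8750 genes whose mean reached 10 CPM. The libraries fall into 2 separate groups, so that Pearson's r here mainly describes the gap between lines and primary cultures. Closest to Ccnd2 were Pofut1, Mocos and Kif1b (r = 0.997, 0.995 and 0.995). Closest to Ccna2 were Sgo2a, Anln and Foxm1 (r = 0.9995, 0.9994 and 0.9987), which function in chromosome cohesion, cytokinesis and the transcription of mitotic genes. Closest to Cdk4 were Hmgb3, Ube2c and the histone gene H3c1 (r = 0.996, 0.993 and 0.993), although these rose far more steeply than Cdk4, Ube2c from 4.71 ± 2.00 CPM (SD, n = 6) to 70.6 and 62.3 CPM.

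A list of 10 genes that set the phosphorylation, assembly or folding of CDKs held activating and inhibitory ones. Of these, 7 were higher in the lines and 0 lower, where 18.3% of all genes were higher and 15.5% lower. Their median log2 difference was 1.23, against -0.01 over all genes. Among the 7 were Wee1 (0.97 ± 0.11 SE, limma adjusted p = 0.000457) and Pkmyt1 (2.57 ± 0.27, adjusted p = 0.000275), kinases that place the inhibitory phosphates which CDC25 phosphatases remove. The largest differences belonged to the phosphatases Cdc25b (3.74 ± 0.40 SE; limma adjusted p = 0.00028) and Cdc25c (3.61 ± 0.55, adjusted p = 0.0016), relatives of Cdc25a that act mainly at mitosis, and to the CDK subunit Cks1b (2.59 ± 0.19, adjusted p = 7.92e-05). Of the CDK-activating kinase itself, which phosphorylates all 3 kinases of the set, 1 of 3 subunits passed. Cdk7 had a log2 difference of -0.19 and Mnat1 of 0.21, neither past the test, although Mnat1 passed with library totals (adjusted p = 0.0456). Ccnh rose by 0.44 (adjusted p = 0.0113), a call that was lost with TPM (0.158) and against female (0.0845) or male cultures (0.0647) alone. Without PMC-303 the log2 difference of Ccnh was 0.40.

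Inhibitors of the kinases moved in both directions. Of 6 tested, 3 were higher and 2 lower, where 18.3% of all genes were higher and 15.5% lower. Their median log2 difference was 1.49, and Cdkn1c had too few counts. Cdkn2a, the locus of the INK4 inhibitor of CDK4 and CDK6 and of ARF, had 1.4 CPM (34 counts) in PMC-303 and 0.147 CPM (3 counts) in PMC-306 against 67 to 103 CPM in primary cultures (limma adjusted p = 8.75e-05). The other INK4 genes went the other way or did not pass. Cdkn2c rose by 3.25 ± 0.59 (SE; limma adjusted p = 0.00368) and Cdkn2d by 2.23 ± 0.32 (0.00111). Cdkn2b had 30.7 CPM in PMC-303 and 6.24 in PMC-306, the latter inside the primary range of 3.69 to 7.13 CPM (adjusted p = 0.0823).

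Of the CIP/KIP inhibitors, which bind CDK2 complexes, Cdkn1b rose from 23.4 ± 4.25 CPM (SD, n = 6) to 55.2 CPM in PMC-303 and 99.7 in PMC-306 (log2 difference 1.68 ± 0.26 SE; limma adjusted p = 0.00171). Cdkn1a fell by 0.62 on the log2 scale (adjusted p = 0.0193). This call was lost with library totals (0.0543), with TPM (0.0885) and against female cultures alone (0.13). Without PMC-306 the log2 difference of Cdkn1a was -0.48.

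Of 12 genes tested that degrade cyclins or their inhibitors, 3 were higher and 0 lower, where 18.3% of all genes were higher and 15.5% lower, and the median log2 difference was 0.06. Skp2, a ubiquitin ligase subunit that targets the CDK2 inhibitor encoded by Cdkn1b, rose by 1.55 ± 0.15 (SE; limma adjusted p = 0.000223), and Fzr1, an activator of the anaphase-promoting complex, by 0.81 ± 0.08 (0.000198). Cul3, a scaffold for degradation of cyclin E, rose by 0.24 (adjusted p = 0.044). This call was lost under several alternatives, among them against female (0.219) or male cultures (0.114) alone. Neither Fbxw7, which targets cyclin E, nor Ambra1, which targets D-type cyclins, passed the test, with log2 differences of -0.32 and -0.12.

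The substrates and targets at the end of the chain were higher or did not pass. Of 8 genes of the retinoblastoma and E2F families, 4 were higher and 0 lower, where 18.3% of all genes were higher and 15.5% lower. Their median log2 difference was 0.36. E2f2, an activating E2F, rose by 3.43 ± 0.38 (SE; limma adjusted p = 0.000342), Rbl1, which encodes p107, by 2.13 ± 0.22 (0.000267), and E2f4, a repressing E2F, by 0.52 ± 0.08 (0.00199). Rb1 had 253 CPM in PMC-303 and 159 in PMC-306 around a primary mean of 188 ± 15.8 CPM (SD, n = 6), and E2f1 had 39.6 and 19.2 CPM around 24 ± 2.28, so that the lines lay on opposite sides of the primary mean for both. Their differences did not pass the test (adjusted p = 0.681 and 0.534).

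Cyclins and kinases of mitosis rose like cyclin A2. All 4 that had enough counts of the 6 listed were higher, where 18.3% of all genes were. Their median log2 difference was 3.64. Ccnb1, Ccnb2 and Cdk1 rose by 3.72 ± 0.43, 3.70 ± 0.43 and 3.58 ± 0.35 (SE; limma adjusted p = 0.000402, 0.000413 and 0.000209), beside 3.98 for Ccna2. Ccna1 was at 0 in every library. Mki67, Top2a and Pcna rose by 3.77 ± 0.48, 3.43 ± 0.36 and 1.67 ± 0.09 (adjusted p = 0.000667, 0.000263 and 5.42e-05).

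Of the 22 cyclins and CDKs tested that act in transcription or elsewhere, 4 were higher, 4 were lower and 14 did not pass. These counts lay near the shares over all genes, 18.3% higher and 15.5% lower. The median log2 difference was -0.08. With library totals or TPM 5 were higher and 2 lower, and the median was 0.03 under both. The largest called rises were Ccng2, Cdk16 and Cdk19 (0.88, 0.66 and 0.56; limma adjusted p = 0.00162, 0.00171 and 0.00221). The largest called falls were Cdk18 and Ccng1 (-1.80 and -0.90; adjusted p = 0.00348 and 0.00662). Ccny had -0.44 (adjusted p = 0.0416), a call that was lost under both scalings and in most fits without 1 primary culture.

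**Figure D5:**
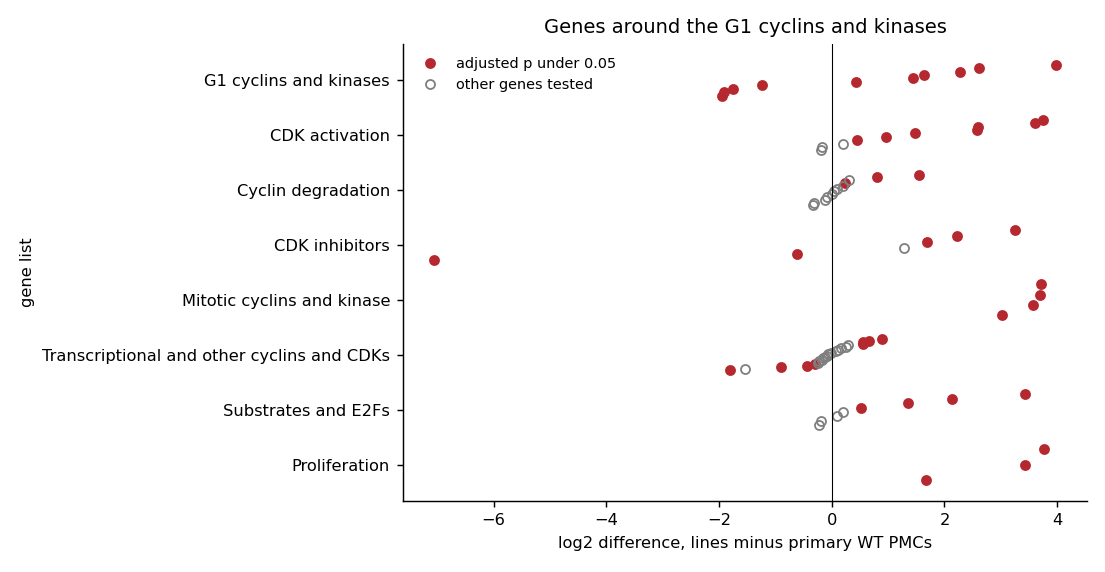
Log2 differences of the lines from primary WT PMCs for the 10 genes and for each tested gene of 7 related lists, with filled red points for an adjusted p under 0.05 and open points for the rest. The 10 genes lie on both sides of 0, the mitotic and proliferation genes all lie at 1.67 or above, and the transcriptional cyclins and kinases cluster around 0.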

How the data were processed

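RNA from 2 PMC lines and 6 primary cultures was sequenced as stranded total RNA. The authors trimmed reads with Trim Galore 0.6.7, aligned them to GRCm39 with STAR 2.7.9a and estimated counts with Salmon 1.5.2, and the deposited tables hold unnormalized estimated counts and TPM per gene and transcript. Spreadsheet software had rewritten 3.37% of gene count cells and 20.8% of gene TPM cells, which were set back to numbers, with the point placed by the counts in 5271 TPM cells. Afterwards 99.7% of gene counts lay within 0.2 of their transcripts' sum.

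Counts were scaled to CPM with TMM and fitted on log2(CPM + 0.1) with limma 3.58.1 (R 4.3.3), using its mean-variance trend. A gene entered the fit with counts near 10 in as many libraries as the smaller group holds and 15 in all, and p-values were adjusted by Benjamini-Hochberg over all genes of the fit. The procedure was also run on simulated counts with the same dispersion for every gene and library, which does not cover the spread between the lines. Python 3.11.15 with scipy 1.17.1 was used for the rest. Genes were named as members, as the 3 largest called differences of a list in each direction with a mean of at least 1 CPM, as regulators acting on a member, or by likeness. The genes and lists were chosen with earlier results of these data known. Per the labels the primary cultures of a sex are biological replicates, while the lines are 1 culture each. Female and male cultures share replicate numbers 1 to 3, but the correlations of same-numbered cultures (0.404, -0.218 and 0.282) do not show pairing. Other scalings, pseudocounts, filters, weights and subsets of cultures were tried.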

Additional observations from a re-analysis of the deposited data

Results flagged for a closer look

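Among the 6 primary cultures, 25 values were searched for a culture set apart from the rest. This means a gap to its neighbour, as a share of the whole range, past Dixon's critical value for 6 samples. There were 4 such values, where chance gives about 1.25 if the values are separate. Sums and ratios were built from the same genes, so that these numbers cannot show an excess over chance. Female culture 2 had 3387 CPM of Ccnd2, with the next culture at 2560.3 CPM, and in the same culture the D-type cyclins summed to 1093 TPM, with the next at 772 TPM. Female culture 3 had 48.6 CPM of Cdk2 against 31.5 CPM in the next. Male culture 3 had 138 TPM of Cdk4 and Cdk6 together, with the next culture at 183 TPM. In CPM neither gene was set apart in male culture 3. It had 109 CPM of Cdk4 and 457 CPM of Cdk6, both inside the range of the other primary cultures.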

How the results depend on the processing

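All 10 genes of the set kept their direction in the comparison of the lines with the primary cultures under 20 alternatives, and 195 of 200 values stayed on the same side of the threshold. The exceptions were Ccnd3 and Cdk6 against female or male cultures alone, where 8 of 10 genes were called, and Cdk6 without female culture 2 and male culture 3, a setting chosen after seeing the data that left 9. Leaving out each primary culture in turn left 10 called. Fits without PMC-303 or PMC-306 are among the 20 alternatives and leave 1 line, so that their p-values rest on the primary spread alone. Over all genes, 4913 were called, 2158 against female and 3027 against male cultures alone, where fewer cultures entered, and 4228 to 4656 without 1 primary culture. The share of higher genes among those called was 54.1%, and 67.2% with library totals and 70.7% with TPM. The share of Ccnd1 in D-type TPM, -0.99 points, was 0.356 with CPM per longest transcript, 0.242 without both cultures and -3.89 to 1.91 without 1 library, and that of Ccnd3 was 3.503 to 10.8. That of Ccnd2, -6.15 points, was -5.69 with CPM per longest transcript and -6.88 to -5.41 without 1 library. Rb1 (-0.24 to 0.43) and E2f1 (-0.32 to 0.72) depended on which line was left out, as did Cdkn2b (0.15 to 2.43).

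Between sexes, 6 genes were called, 1 to 6 without 1 library, and with the replicate block 5, with 0 of the 10 genes called in any fit. Without 1 library, log2 differences between sexes ranged from -0.155 to 0.0351 for Ccnd3, -0.13 to 0.30 for Ccne1, -0.31 to 0.15 for Ccne2, -0.38 to 0.55 for Ccna2, -0.0656 to 0.367 for Cdk2 and -0.0685 to 0.0329 for Cdk4. The causes were not tested. Depth limited Ccne1 most, with 43 counts in the shallowest value, and 1 library a line leaves differences between PMC-303 and PMC-306 without a replicate check.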
